A study of Mus musculus with 4 samples.

Results

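Short lineage tags carried by MK cells and matched by no tag of the Diff_MK library were examined as a set of oligonucleotides. MK is a mouse keratinocyte line, keratinocytes being the main cell type of the epidermis. The MK tag library listed 1055 tags, and 12 of them were at most 48 bases long and matched none of the 154 Diff_MK tags over the shorter of both lengths from the first base. They were compared with the 950 longer MK tags that also lacked a Diff_MK match. The remaining 93 MK tags matched a Diff_MK tag, and 3 of those were also at most 48 bases long. The series holds 4 samples in 4 groups of 1 library each, namely 1 RNA and 1 tag library labelled MK and 1 of each labelled Diff_MK. Every sample carries the treatment label Dox, the usual short form of doxycycline, and GFP-positive cells were collected by sorting before the libraries were made. No sample without Dox was analysed here, the labels do not spell out Diff, and they give no time point. Because each group is 1 library, no p-value was computed, and the intervals given are exact 95% intervals or order-statistic intervals of a median that cover counting error or the spread over tags or cells only.

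A lineage tag is a stretch of DNA that differs between founder cells and is inherited by their descendants, so cells that share a tag are read as a clone. Where DNA ends are joined in a cell, bases can be lost from either end, bases shared by both ends can come to lie at the join, and bases present in neither end can be added. The labels do not describe how these tags arise. In the deposited list, tags shared a left and a right flank. Each was read base by base as the majority letter among the MK tags that held the part read so far. Bases read later thus rest on fewer tags. Both flanks are shown because every short tag can be written as a part of one followed by a part of the other, and capitals mark the 10 bases of each that are reverse complements of one another.
Left flank: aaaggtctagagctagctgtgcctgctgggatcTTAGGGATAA
Right flank: TTATCCCTAAtagctcaggttttaccgg
The left flank had 43 bases and the right flank 28. The last bases of the left flank, TAGGGATAA, are also the start of the recognition sequence of the homing endonuclease I-SceI, although the labels name no nuclease.

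The 12 short tags are shown in full, from the shortest to the longest, so that the join of each can be read. Capitals mark the part that matches the right flank, including any bases that both flanks share at the join, and lower case marks the rest.
Tag459: aaaggtCTAATAGCTCAGGTTTTACCGG
Tag79: aaaggtctagagcTAGCTCAGGTTTTACC
Tag210: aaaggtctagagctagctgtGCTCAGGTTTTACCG
Tag363: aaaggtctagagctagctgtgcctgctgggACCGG
Tag206: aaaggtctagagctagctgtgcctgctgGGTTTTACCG
Tag591: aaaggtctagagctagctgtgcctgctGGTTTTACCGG
Tag1008: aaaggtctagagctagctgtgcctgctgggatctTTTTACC
Tag186: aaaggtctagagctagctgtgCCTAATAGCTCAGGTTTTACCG
Tag981: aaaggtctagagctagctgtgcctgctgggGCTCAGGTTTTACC
Tag86: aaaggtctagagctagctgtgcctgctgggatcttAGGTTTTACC
Tag175: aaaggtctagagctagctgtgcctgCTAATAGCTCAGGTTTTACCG
Tag974: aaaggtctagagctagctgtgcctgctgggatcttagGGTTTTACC
Their lengths ran from 28 to 46 bases with a median of 39.5, whereas 940 of the 950 longer tags had the full listed length of 56 bases and the other 10 had 52 to 55. All 12 ended within the last bases of the right flank, 5 in ACC, 4 in ACCG and 3 in ACCGG, and none was the start of another MK tag. A short tag was therefore not a listed longer tag cut off at its end. None of the 12 sequences, read on either strand, occurred in the 141767 mouse transcripts of GENCODE vM21.

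The short tags had lost bases on both sides of the join. Relative to the flanks above, the loss from the left flank ran from 4 bases in Tag974 to 34 in Tag459, with a median of 13.5, and the loss from the right flank ran from 5 bases in Tag186 to 23 in Tag363, with a median of 14. In the 872 longer MK-only tags whose right flank could be read over at least 8 bases, the median losses were 4 and 3 bases. Loss of bases and length are 2 sides of one measure, so this contrast follows from the choice by length. The join was not itself part of the choice, although added bases lengthen a tag and so are tied to it in part. None of the 12 short tags had bases between the flanks, against 811 of the 872 longer tags (93.0%), whose median was 3 such bases. In 11 of the 12, the last bases kept from the left flank were also the bases that preceded the kept part of the right flank. Those shared bases numbered 5 in Tag79 (TAGCT), 3 in Tag86 (AGG), Tag186 (CCT) and Tag459 (CTA), 2 in Tag206, Tag591 and Tag974 (GG), Tag210 (GC) and Tag175 (CT), and 1 in Tag363 and Tag1008. Tag981 had neither shared nor added bases. Only 7 of the 872 longer tags (0.803%) had any shared base. The same kind of join was found in short tags that match a Diff_MK tag, where 3 of 3 had shared and 0 of 3 had added bases, and 12.6% of the longer matching tags whose join was read (11 of 87) had shared bases. Among the 10 MK-only tags of 52 to 55 bases, 3 had shared bases and 5 had added bases. Tag363 kept only 5 bases of the right flank, which made its join the least certain of the 12.

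In cells, every short tag had a clone of its own. A cell was assigned to a tag, and is called led by it, when that tag had at least 3 counts and at least 2 times the counts of the next tag. Whether tag counts are molecules or reads is not given in the sources used here. All 12 short tags led at least 1 cell, against 84.2% of the longer MK-only tags (800 of 950), and the exact interval for 12 of 12 reaches down to 73.5%. The difference of 15.8 percentage points had an interval from -10.8 to 18.3 and was not resolved at this number of tags. The short tags led 103 of 4560 assigned cells (2.26%, Clopper-Pearson interval 1.85 to 2.73%), and the longer tags led 2156 (47.3%).

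Clones of short tags, counted as the cells led by the same tag, were larger. Whether the same join arose in more than 1 founder cell was not tested. Tag79 led 26 cells, Tag86 led 17, Tag186 led 10 and Tag210 led 8. Tag206, Tag459, Tag591 and Tag974 led 7 cells each, Tag175 and Tag363 led 5 each, Tag981 led 3 and Tag1008 led 1. The median was 7 cells per short tag (interval 5 to 10) against 1 per longer tag (interval 1 to 1), a difference of 6 with an interval from 4 to 9. Clones of 5 or more cells were found for 10 of 12 short tags (83.3%, interval 51.6 to 97.9%) and for 10.4% of longer tags (99 of 950). Clones of a single cell made up 1 of 12 short clones (8.33%) and 50% of longer clones (400 of 800), 41.7 percentage points fewer, with an interval of the difference from -50.5 to -11.3. The longer class still held the biggest clones, and 7 of its 950 tags led at least as many cells as Tag79. The 10 longer tags of 52 to 55 bases had a median of 3 cells and a range from 0 to 41. The 3 short tags that did match a Diff_MK tag, Tag214, Tag50 and Tag170, led 11, 31 and 12 cells, so none of the 3 was smaller than the median of the 12. Clone sizes depend on which tags the authors listed, and how that list was built is not given in the sources used here.

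No MK tag lay between 46 and 50 bases, and those of 50 bases matched a Diff_MK tag. Just inside the limit, the 46-base tags Tag175 and Tag974 led 5 and 7 cells. Just outside it, the 52-base tags Tag32 and Tag318 led 41 and 5 cells.

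Counts of the leading tag were high but varied widely within a clone. In the 26 cells led by Tag79, its count ran from 6 through a median of 123 to 446. In the 17 cells of Tag86 the lowest, median and highest counts were 4, 142 and 453. For Tag186 they were 11, 63.5 and 144, the lowest median but one, and for Tag210 they were 42, 171 and 336. Cells of one clone therefore differed by more than 10-fold in Tag79, Tag86 and Tag186. The same held for Tag175, Tag206, Tag363, Tag459 and Tag974, whose counts follow.
Tag206 had 25, 189 and 271 counts at the lowest, median and highest cell, and Tag591, which had the narrowest spread of the clones with 5 or more cells, had 55, 114 and 176. Tag974 had 10, 97 and 322, and Tag459 had 16, 60 and 171. The 5 cells of Tag175 had 662, 493, 130, 94 and 19 counts. The 5 cells of Tag363 had 628, 150, 90, 62 and 33. The 3 cells of Tag981 had 348, 248 and 223 counts, close to each other, and the single cell of Tag1008 had 596, so the smallest clones were not the ones with the weakest signal.

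Outside the cells they led, short tags were met often but at low counts. Tag79 had at least 1 count in 2212 of 6411 cells (34.5%), the widest scatter, and Tag1008 in 289 (4.51%), the narrowest. In the cells that a short tag did not lead, its mean count where present was between 1.04 (Tag1008) and 1.68 (Tag86), and between 69.7% (Tag79) and 96.2% (Tag1008) of those cells had exactly 1 count. The cells led by a short tag held a median over tags of 52.7% of all its counts, from 29.1% for Tag186 to 68.2% for Tag363, against a median of 38.5% for longer tags that led a cell. Counting a tag in every cell that held it, the mean count per cell had a median of 2.83 over the short tags (range 1.78 to 3.47) and 1.83 over the longer ones (range 1 to 5.62), a ratio of 1.54 (interval 1.13 to 1.69). Among tags leading 5 or more cells in both classes, a comparison added after the values were seen, that ratio was 1.24 (interval 0.903 to 1.44) and was not resolved.

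Tags that differed by 1 base were still told apart in cells. Tag86 and Tag974 are 1 edit apart, an edit being a base changed, gained or lost, and led 17 and 7 cells. Tag974 had at most 3 counts in cells led by Tag86, and Tag86 at most 2 in cells led by Tag974. Tag186 is 1 edit from Tag170, a 44-base tag that matches a Diff_MK tag. In the 10 cells led by Tag186, Tag170 had 0 counts, and in the 12 cells led by Tag170, Tag186 had at most 2. Tag206 and Tag591, 2 edits apart, also had at most 2 counts in each other's cells. The closest Diff_MK tags were 2 edits away for Tag186 and Tag974 and 3 to 8 edits away for the other 10. When 1 mismatch to a Diff_MK tag was allowed over the shorter length, 10 short tags remained unmatched.

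Among cells assigned to short tags, a second tag at high count was not seen, but assignment itself leaves out some such cells. A tag was called present in a cell if it reached 10 counts and also 10% of that cell's tag counts. By this definition 0 of the 103 cells led by a short tag had a second called tag. Assignment already required the leading tag to have at least 2 times the next. Longer-led cells were not counted in this way. Among unassigned cells, 4 had a called short tag. Tag459 stood second to Tag528 in 2 of them, with 146 counts beside 212 and 158 counts beside 289. Tag528, of 56 bases, led 0 assigned cells. In the other 2 cells, Tag86 had 158 counts beside 235 of Tag928, and 440 beside 256 of Tag44. Whether these 4 barcodes hold 1 cell or several was not tested.

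The cells led by short tags had fewer tag counts in all but about the same amount of RNA. Their median total was 228 tag counts (interval 196 to 272), against 524 (interval 504 to 545) for cells led by longer MK-only tags. Median RNA UMIs, the molecules counted per cell, were 16158 (interval 15126 to 17379) and 15858 (interval 15601 to 16105). The leading tag had a median of 125 counts in short-led and 204.5 in longer-led cells, and all other tags together had 97.0 and 315.5. The leading tag thus made up a median of 53.8% of the tag counts in short-led cells (interval 47.7 to 57.5%) and 38.3% in longer-led cells (interval 38.1 to 38.6%), a difference of 15.5 percentage points (interval 9.39 to 19.2). With a limit of 52 bases, which adds Tag32 and its 41 cells and Tag318, the difference was 6.93 percentage points. The next tag had a median of 5 counts in short-led and 15 in longer-led cells. Counts in the entry named unmapped made up a median of 20.9% and 14.9% of the cell's counts. Of the counts of other tags in short-led and longer-led cells, 50.2% and 50.1% fell on longer MK-only tags, 47.9% and 49.1% on tags that match Diff_MK, and 1.85% and 0.763% on short MK-only tags.

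The leading share fell into separate ranges by the part of the right flank that a short tag kept, a split chosen after the values were seen. Tag175, Tag186 and Tag459 hold the letters AATAGC, the only 3 of the 12 to do so, and their median leading shares were 36.0%, 33.4% and 33.3%. The other 9 short tags lack these letters and had medians from 43.6% (Tag981) to 69.5% (Tag1008). Over cells, the medians were 33.7% (interval 32.7 to 36.3%) in 22 cells and 57.7% (interval 54.5 to 60.9%) in 81 cells. For each count of the leading tag there were 1.97 counts of other tags in the first group and 0.733 in the second. Short tags that match a Diff_MK tag lay in the same ranges, with 35.4% for Tag170, which holds the letters, and 52.5% for Tag50 and 53.4% for Tag214, which do not. Tags of 52 to 55 bases did not separate in this way, with ranges from 36.9% to 45.6% with the letters and 32.2% to 56.3% without. Tags of 56 bases had cell medians of 38.2% with and 38.6% without the letters, but many of them end before this part of the flank could be read. What in the authors' tag counting bears on these shares was not tested.

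The cells that carried short tags were keratinocytes by their RNA. All 8 keratinocyte markers were measured in both sets of cells, and Krt14 and Krt5, the keratins of the basal layer, had 8088 and 1463 CPM (UMIs of the gene relative to all UMIs of the set) in short-led cells and 6352 and 1130 CPM in longer-led cells. Trp63, the master regulator of stratified epithelium, had 92.1 and 89.5 CPM. Summed levels of fibroblast markers were 0.602 and 0.610 CPM, with 5 of 6 genes at 0 UMIs in short-led cells, and melanocyte markers had 2.41 and 2.53 CPM. Immune markers had 1.20 and 7.08 CPM, with 4 of 5 genes, Ptprc among them, at 0 UMIs in short-led cells. Endothelial markers had 2.41 and 1.48 CPM. Merkel cell markers had 21.7 and 20.5 CPM, mostly from the transcription factor gene Sox2 at 16.9 and 15.2 CPM, while Atoh1, which defines that cell type, was at 0 UMIs in both sets.

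Expression in short-led cells was close to that in longer-led cells. UMIs were summed over the 103 and the 2156 cells, 1660892 and 34451534 in all. Of 3009 genes at 50 CPM or more in either set, 6 differed at least 2-fold, 3 in each direction (0.199%). The genes with the highest ratios were small proline-rich genes of the cornified envelope, the protein shell of dying surface keratinocytes, together with Psca, a cell surface antigen, and Serpinb2, a protease inhibitor. Sprr2d (chromosome 3, 92339140 to 92340873, GRCm38) had 405 and 169 CPM in short-led and longer-led cells, a ratio of 2.40 (interval 2.21 to 2.60), and Sprr2e had 100.5 and 35.2 CPM. The ratios of Sprr2d and Sprr2e rested on 1 cell. A single cell led by Tag363 held 54.7% of the Sprr2d UMIs, 68.3% of the Sprr2e UMIs, 44.4% of the Psca UMIs and 87.4% of the Sprr1a UMIs of all short-led cells. Without it the ratios were 1.10 for Sprr2d, 0.916 for Sprr2e, 1.23 for Psca and 0.243 for Sprr1a. Serpinb2 had 132 and 66.4 CPM, a ratio of 1.99, and was above the longer-led level in 7 of 12 tags. The cell with the most Serpinb2 UMIs, led by Tag86, held 47 of them (21.5%), and without it the ratio was 1.57. A cell led by Tag175 held 45 more and was kept in that ratio, so 1.57 still rests in part on a single cell. Without all 5 cells of Tag363, 4 genes differed at least 2-fold, 1 higher and 3 lower. Without the 26 cells of Tag79, 12 genes did, and with a minimum of 10 CPM 74 genes of 7789 did, 19 higher and 55 lower. The Sprr2 genes are a family of similar copies, and how the counting divided their reads was not tested.

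Genes at the low end were low in most short tags, but most of them were picked for the lowest ratios. Lor, Hes6, Orm1 and Tmem176b also reached 50 CPM only in longer-led cells. Their counts of tags below the longer-led level follow in part from that choice and are no separate support. How many longer clones lay below the same level was not counted. Lor, which encodes the cornified envelope protein loricrin (chromosome 3, 92080271 to 92083142, GRCm38), had 16.9 CPM in short-led and 84.5 CPM in longer-led cells, 5.01-fold lower (interval of the ratio 0.132 to 0.289). It lay below the longer-led level in all 12 tags and at 0 UMIs in 4 of them, and Tag79, the highest, had 40.1 CPM. Tag79 gave 57.1% of the Lor UMIs of short-led cells, and without it the ratio was 0.113 (interval 0.0581 to 0.197). Lor was detected in 16.5% of short-led (interval 9.92 to 25.1%) and 25.6% of longer-led cells (interval 23.8 to 27.5%), intervals that overlap. No cell type that should lack Lor was present to measure free RNA. Hes6, a Hes-family transcriptional regulator, had 24.1 and 73.7 CPM, a ratio of 0.327 (interval 0.233 to 0.446), with all 12 tags below the longer-led level. Orm1, encoding an acute-phase plasma protein, had 27.7 and 73.8 CPM, with 2 tags above the longer-led level. H2-D1, a class I histocompatibility gene, had 228 and 409.6 CPM, and Slpi, a secreted protease inhibitor, had 421 and 662 CPM. Both of these were below the longer-led level in all 12 tags. Tmem176b, encoding a membrane protein, had 29.5 and 59.0 CPM, with 1 tag above the longer-led level. The 12 tags are clones from 1 library, so their number is not a number of replicates, and whether other libraries would show these levels was not tested.

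Lists for epidermal stages had most measured members higher in short-led cells, in part through the cells of Tag363. The median log2 ratio of short-led over longer-led cells was 0.00 over all 3009 genes. In the basal list 10 of 12 measured genes were higher, with a median log2 ratio of 0.18 and none at 2-fold. Krt14 was above the longer-led level in 9 of 12 tags, with a ratio of 1.27, and the integrin gene Itgb1 was lower at 435 and 535 CPM. The spinous list had 5 of 5 members higher, with a median of 0.39, and without Tag363 4 of 5 with a median of 0.10. Its most abundant members were Sfn, encoding stratifin, at 1596 and 1499 CPM and Krtdap, a differentiation-associated gene, at 682 and 518 CPM. The member Ly6d, a surface antigen of stratified epithelia, had 408 and 297 CPM, but 38.8% of its UMIs came from the 5 cells of Tag363, without which the ratio was 0.886. The granular list of 16 genes had 6 measured members. Of these, 5 were higher, with a median of 0.32, Sprr2d 2-fold higher and Lor 2-fold lower or more. Sprr1a (62.0 and 32.5 CPM) and Ivl (58.4 and 45.5 CPM) reached 50 CPM only in short-led cells, and Lor only in longer-led cells. The count of higher members and the median thus depend in part on that minimum. Without Tag363, 4 of 6 were higher with a median of 0.11, 0 were 2-fold higher and 2, Lor and Sprr1a, were at least 2-fold lower. Sprr2d had the highest ratio in it and rested on 1 cell as above, while the most abundant members, Sprr1b of the cornified envelope and the protease inhibitor gene Spink5, had 641 and 527 CPM and 465 and 401 CPM. Stress keratins and alarmins, a list of 9 genes, had 3 of 4 measured members higher, all of them keratins, while Slpi was lower. Of the genes below the minimum, Lcn2 (2.41 and 45.9 CPM), Krt6b and S100a8 were lower in short-led cells, and Defb1 was higher. S100a9 was nearly level at 22.3 and 23.6 CPM (interval of the ratio 0.660 to 1.31). Krt6a, a keratin of wounded and cultured epidermis, had 2564 and 1790 CPM and was above the longer-led level in 11 of 12 tags. Krt16, its partner in stressed epidermis, had 322 and 200 CPM, and Tag175 gave 28.2% of its UMIs, without which the ratio was 1.21.

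The largest short clones differed from each other. Cells of Tag79, Tag86, Tag186 and the other 9 tags together had summed granular levels of 997, 1067, 1517 and 2247 CPM, against 1288 CPM in longer-led cells. G2/M genes, transcripts of dividing cells, had 2368, 1675, 1159 and 1881 CPM in the same order, against 1804 CPM. Tag79 thus lay lowest for the granular list and highest for the G2/M list, and Tag186 lowest for the G2/M list. The G2/M list as a whole had 11 of 14 measured members higher in short-led cells with a median of 0.08, and the S phase list 10 of 11 with a median of 0.26, led by Rrm2, a subunit of ribonucleotide reductase (350 and 272 CPM). Pcna, the sliding clamp of replication, had 264 and 246 CPM, and Top2a, a topoisomerase of dividing cells, had 437 and 386 CPM. Without the 5 cells of Tag363, the other 8 tags had a summed granular level of 1534 CPM and a G2/M level of 1929 CPM. With 26, 17 and 10 cells per clone, a few cells can set such sums.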

How the data were processed

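RNA of single cells and tag libraries made by a CITE-seq-type protocol come from GFP-positive cells, per the labels' protocols. The RNA matrices hold raw UMI counts deposited without normalization, and the submitters' processing notes name Cell Ranger 6.1.2 and mm10. The tag matrices hold raw deposited counts of each tag in each barcode. Which tool counted tags is not given in the sources used here. No call used the unmapped entry, 18.2% of MK tag counts. Cells needed 1000 detected genes and no more than 15% mitochondrial UMIs, a filter passed by all 6411 barcodes of the MK tag library (median 354 tag counts), and 9 cell barcodes also occur in the Diff_MK tag library. No doublet caller was run, and cells in which no tag had 2 times the next were not assigned. The Diff_MK RNA library was not used here.

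The members and gene lists were chosen with earlier results of these data known. Tags named are all 12 short ones, their nearest tags and those next to the limit. Genes named are the 6 highest and 6 lowest CPM ratios after adding 10 counts, at 50 CPM or more in either set, without predicted, mitochondrial and ribosomal protein genes, and the most abundant list members; Ly6d, Krt16, Itgb1 and Ptprc were named after their values were seen. Some genes that this rule names are not reported here. Intervals of ratios are exact conditional binomial ones, and those of differences combine the intervals of both values. A floor of 3 counts applied to log2 ratios. Gene positions come from GENCODE vM21. Scripts ran in Python 3.11.15 with numpy 2.4.6, scipy 1.17.1 and pandas 2.3.3. On data simulated for the RNA comparison over 2865 genes, 100% of the 200 genes simulated at 3-fold passed the 2-fold threshold. Of unchanged genes 0% passed it, and 94.9% of their intervals held the true ratio. The simulated counts were pooled and did not vary between cells or clones. They therefore check the calculation only, not how the intervals and the threshold behave where 1 cell or clone holds many UMIs. On simulated tags, 100% of tagged cells were assigned to their own tag, and 4.76% of untagged cells were assigned to a tag. Each simulated tagged cell held 1 tag at the same mean count over a common background. Weak cells, cells with a second tag and mix-up of similar tags were not simulated. These values also check the calculation only, not the accuracy of assignment in the real library.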

Additional observations from a re-analysis of the deposited data

Results flagged for a closer look

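The entry named unmapped in the MK tag library, which entered no call, held 693971 counts, 18.2% of all counts of that library. Its share was a median of 20.9% in cells led by short MK-only tags and 14.9% in cells led by longer ones. What sequences it holds was not analysed here.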

How the results depend on the processing

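Of 97 alternative values, 87 stayed within the interval of the reported value or within 1.5 times a reported count, 10 fell outside that and 0 changed direction. The median clone of a short tag was larger by 5.5 to 6 cells throughout. With a length limit of 52 bases, which adds Tag32 and Tag318, short tags led 3.27% of assigned cells and the gap in leading share shrank to 6.93 percentage points. Matching only identical tags gave 2.76% of cells. Allowing 1 mismatch gave gaps of 19.4 percentage points in leading any cell and -60.3 in clones of 1 cell, and 10 genes at 2-fold or more. A minimum of 10 CPM gave 74 genes. Of the settings, 5 were chosen after the data were seen. Among these, without Tag79, short tags led 1.69% of cells and 12 genes differed, and without Tag79 and Tag86 18 genes differed. Keeping all tag barcodes or joining tags that start another changed no value, since no barcode or short tag was affected. No paired analysis was possible because each group has 1 library. With 12 short tags and 103 cells, differences smaller than these intervals could not be seen.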

Other observations

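The Diff_MK tag library also listed short tags, 9 of 154 (5.84%) at 48 bases or fewer, against 15 of 1055 (1.42%) in MK. Of these 9, 3 matched a short MK tag and 1, of 48 bases, matched a longer one. Over all Diff_MK tag barcodes the 9 tags led between 0 and 136 cells, the largest being Tag15, of 38 bases, which is identical to the MK tag Tag50.

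The interferon response list lay below the median of all genes in short-led cells, and the other lists here lay nearer to it. Chemokine genes had 4 of 6 measured members lower with a median log2 ratio of -0.05, the neutrophil chemokine genes Cxcl5 and Cxcl3 standing at 1499 and 1561 CPM and at 611 and 667 CPM. Targets of p53 had 5 of 6 members lower with a median of -0.09, and the apoptosis genes Phlda3 and Bax had 258 and 279 CPM and 185 and 189.9 CPM. The interferon response list had 3 of 3 members lower with a median of -0.43, H2-D1 lowest and B2m, its light chain, at 96.9 and 99.6 CPM. In the list for DNA double-strand break repair, Xrcc5, a subunit of the Ku complex that binds DNA ends, had 71.6 and 58.8 CPM.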
